A study of Mus musculus with 33 samples.

Results

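Pmp22, Adm and Vars2 are 3 of the 53735 gene names in each of 9 tables of treatment effects from immune cells sorted from mouse pancreatic tumours. They were selected on measured values: in tumour-associated macrophages, the effect of 2 treatments given together departed from the sum of the effects of each given alone. The members were chosen by these macrophage effects, so those are described here without a test, and tests are given only in the other 2 cell populations, whose libraries the choice did not use.

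The tumours were KCKO pancreatic ductal adenocarcinoma cells, a mouse line, implanted in the pancreatic tail of C57BL/6 mice with titanium markers placed beside the tumour. Stereotactic body radiotherapy (SBRT) was 6 Gy in each of 4 fractions on days 6 to 9, and interleukin 12 (IL-12) was given on day 10 as 2 mg of microspheres holding 0.5 µg, injected into the tumour. Cells were sorted from tumours left unirradiated, given SBRT, given IL-12, or given SBRT and then IL-12 (the combination): tumour-associated macrophages (TAM; Ly6G-, F480+ and moderate for Ly6C among CD45+CD11b+ cells), inflammatory monocytes (IM; Ly6C+ and Ly6G- among the same cells) and CD8 T cells (CD8; CD8+ among CD45+ cells). There were 33 libraries, 3 for every group of IM and of CD8, while among the TAM groups IL-12 had 3 and unirradiated, SBRT and the combination had 2. The labels name an injection of empty microspheres without saying which groups received it, give no day of harvest, do not say whether libraries of a group came from separate mice, and report RNA integrity above 5 for all samples. All p-values therefore measure the spread between these libraries.

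Pmp22 encodes peripheral myelin protein 22, a small protein with 4 membrane spans that was also isolated as a growth arrest-specific transcript, Gas3; it is best known from compact myelin of Schwann cells, where changes in its gene dose cause inherited neuropathy, and it is also made outside nerve. Adm encodes the precursor of adrenomedullin, a vasodilator peptide that hypoxia induces through HIF and that macrophages secrete. Adrenomedullin acts through the receptor Calcrl paired with Ramp2 or Ramp3, and Ackr3 can bind and scavenge it. Vars2 encodes the mitochondrial valyl-tRNA synthetase, which loads valine onto mitochondrial tRNA for the translation of the proteins that mitochondrial DNA encodes.

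In build GRCm38 with GENCODE annotation, Pmp22 (ENSMUSG00000018217.12) spans chromosome 11 from 63128982 to 63159547 on the plus strand, Adm (ENSMUSG00000030790.15) spans chromosome 7 from 110627661 to 110629820 on the plus strand, and Vars2 (ENSMUSG00000038838.15) spans chromosome 17 from 35655634 to 35667592 on the minus strand. The 3 genes are protein-coding and lie on different chromosomes. The bases just before their starts are shown because Pmp22 and Adm moved in the same direction in TAM and Vars2 in the opposite one; they are from RefSeq, build GRCm38.p6, 5′ to 3′ on the gene's strand, with capitals marking the letters GCGTG on either strand, 1 form of the core that HIF binds. For Pmp22 the first of 4 annotated starts is printed, and for Vars2 the 137 bases that separate it from the next gene.
Adm, chr7:110627407-110627656, plus strand: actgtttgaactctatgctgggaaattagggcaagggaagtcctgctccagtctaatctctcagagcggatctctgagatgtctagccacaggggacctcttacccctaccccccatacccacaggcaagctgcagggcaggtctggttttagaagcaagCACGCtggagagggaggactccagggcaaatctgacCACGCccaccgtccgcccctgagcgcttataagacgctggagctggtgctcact
Pmp22, chr11:63128732-63128981, plus strand: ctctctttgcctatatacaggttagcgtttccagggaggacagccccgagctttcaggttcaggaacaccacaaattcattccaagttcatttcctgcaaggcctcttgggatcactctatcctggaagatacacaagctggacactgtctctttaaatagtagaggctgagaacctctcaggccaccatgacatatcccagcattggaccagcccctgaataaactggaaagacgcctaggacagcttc
Vars2, chr17:35667593-35667729, minus strand: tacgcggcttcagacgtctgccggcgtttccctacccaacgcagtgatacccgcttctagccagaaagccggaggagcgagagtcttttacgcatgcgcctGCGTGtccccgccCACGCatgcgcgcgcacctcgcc

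The Adm window held GCGTG at positions -90 to -86 and -54 to -50 from the start, and the Vars2 window held it at -36 to -32 and -23 to -19. The printed Pmp22 window held none, and the window of its second annotated start held 1, at -17 to -13 from that start. Of 32851 promoter windows of 250 bases in the same RefSeq set, 28.2% held GCGTG on at least 1 strand. The windows of the 3 genes held no match to ACGTG, the other form of the HIF core (16.6% of all windows), the interferon-stimulated response element, searched with free positions between its repeats (2.98%), TGANTCA, the AP-1 site (6.75%), or the p53 motif, searched by 1 copy of its repeat (7.13%). These are matches of letters, and no binding was measured.

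In TAM, Pmp22 was lower after each treatment, and it was higher after the combination than after SBRT alone. The mean normalised level over the 9 TAM libraries in the authors' deposited table was 723. The tables hold no value for a single library, so the level of each group was worked back from that mean and the deposited fold changes. These fold changes are shrunken towards 0, so the levels given here and below lie closer together than levels from unshrunken folds would. Pmp22 stood at 1337 in unirradiated tumours (2 libraries), 262 after SBRT (2), 700 after IL-12 (3) and 602 after the combination (2). Whether single libraries of these groups overlapped cannot be read from group values, and in bulk RNA fewer cells of a type and less RNA per cell cannot be told apart. The log2 fold change over unirradiated was -2.35 ± 0.24 (SE) after SBRT, 5.10-fold lower, -0.93 ± 0.22 after IL-12, 1.91-fold lower, and -1.15 ± 0.25 after the combination, 2.22-fold lower. With the shrinkage inverted, the 3 effects were -2.99, -1.14 and -1.53. The sum of the deposited single effects was -3.28. The combination lay 2.13 ± 0.41 above that sum, a difference here called the departure. Read the other way, IL-12 given without SBRT went with 0.93 log2 less Pmp22, and IL-12 given after SBRT went with a combination level 1.20 ± 0.35 log2 above that of SBRT alone. The combination minus IL-12 alone was -0.22 ± 0.34, with a 95% interval from -0.88 to 0.44. With the variance of the shared unirradiated libraries removed, this error was 0.23.

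**Figure D1:**
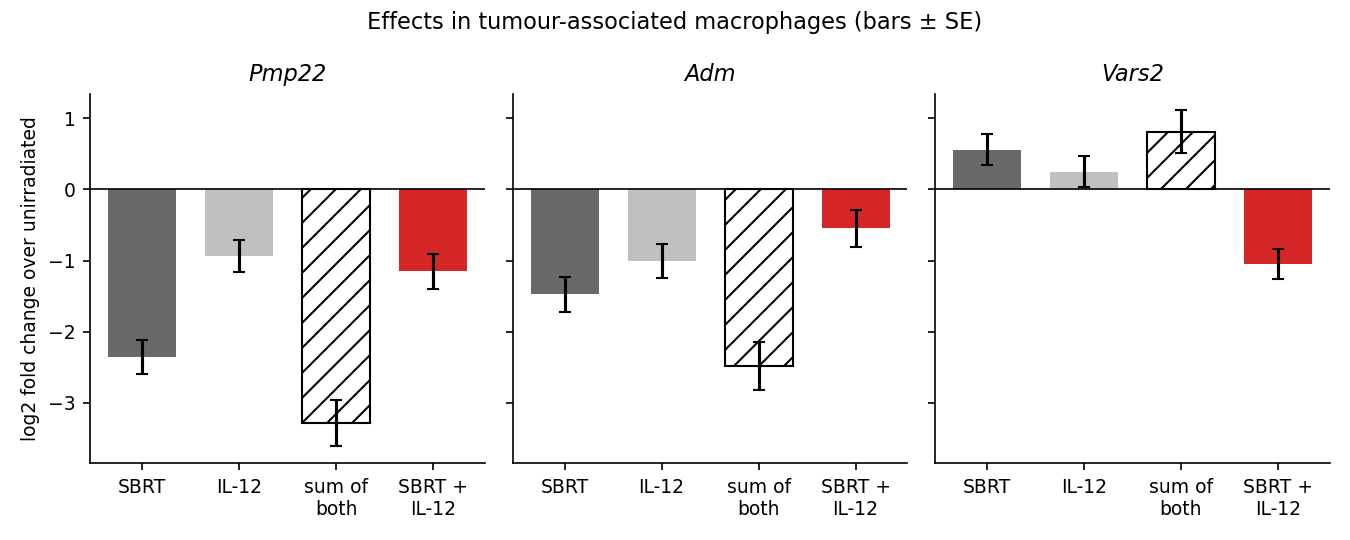
Log2 fold change over unirradiated in TAM (y axis) for Pmp22, Adm and Vars2 after SBRT, IL-12 and the combination, with the sum of the single effects as a hatched bar. Error bars are 1 SE, that of the sum taking the single effects as independent; the red combination bar stops short of the hatched bar for Pmp22 and Adm and points the opposite way for Vars2.

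Adm, too, was lower after each treatment and higher after the combination than after SBRT alone. Its mean TAM level was 457, with implied levels of 737 in unirradiated tumours, 265 after SBRT, 367 after IL-12 and 504 after the combination. Each treated group was therefore below the unirradiated group, and the combination was the nearest of the 3 to it. The log2 fold change was -1.47 ± 0.24 after SBRT (2.78-fold lower), -1.01 ± 0.23 after IL-12 (2.01-fold lower) and -0.55 ± 0.25 after the combination (1.46-fold lower). The single effects summed to -2.48, and the departure was 1.93 ± 0.42. The combination exceeded SBRT alone by 0.92 ± 0.35 and IL-12 alone by 0.46 ± 0.34, the latter with a 95% interval from -0.22 to 1.13. Unlike Pmp22, Adm thus had a combination value above both single-treatment values. The interval for the difference from IL-12 keeps the variance of the shared unirradiated libraries. With that variance removed the error was 0.23, and no test is drawn from these chosen values.

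Vars2 went the other way. Its mean TAM level was 419, with implied levels of 398 in unirradiated tumours, 586 after SBRT, 473 after IL-12 and 192 after the combination. Both single treatments stood above the unirradiated group and the combination below every other group. The log2 fold change was 0.56 ± 0.22 after SBRT (1.47-fold), 0.25 ± 0.21 after IL-12 (1.19-fold), with a 95% interval from -0.17 to 0.67, and -1.05 ± 0.21 after the combination (2.07-fold lower). The single effects summed to 0.81, and the departure was -1.86 ± 0.37. The combination minus SBRT alone was -1.61 ± 0.30, and the combination minus IL-12 alone was -1.30 ± 0.30. Of the 3 genes, Vars2 was the one whose combination effect had the opposite sign to both single effects.

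**Figure D2:**
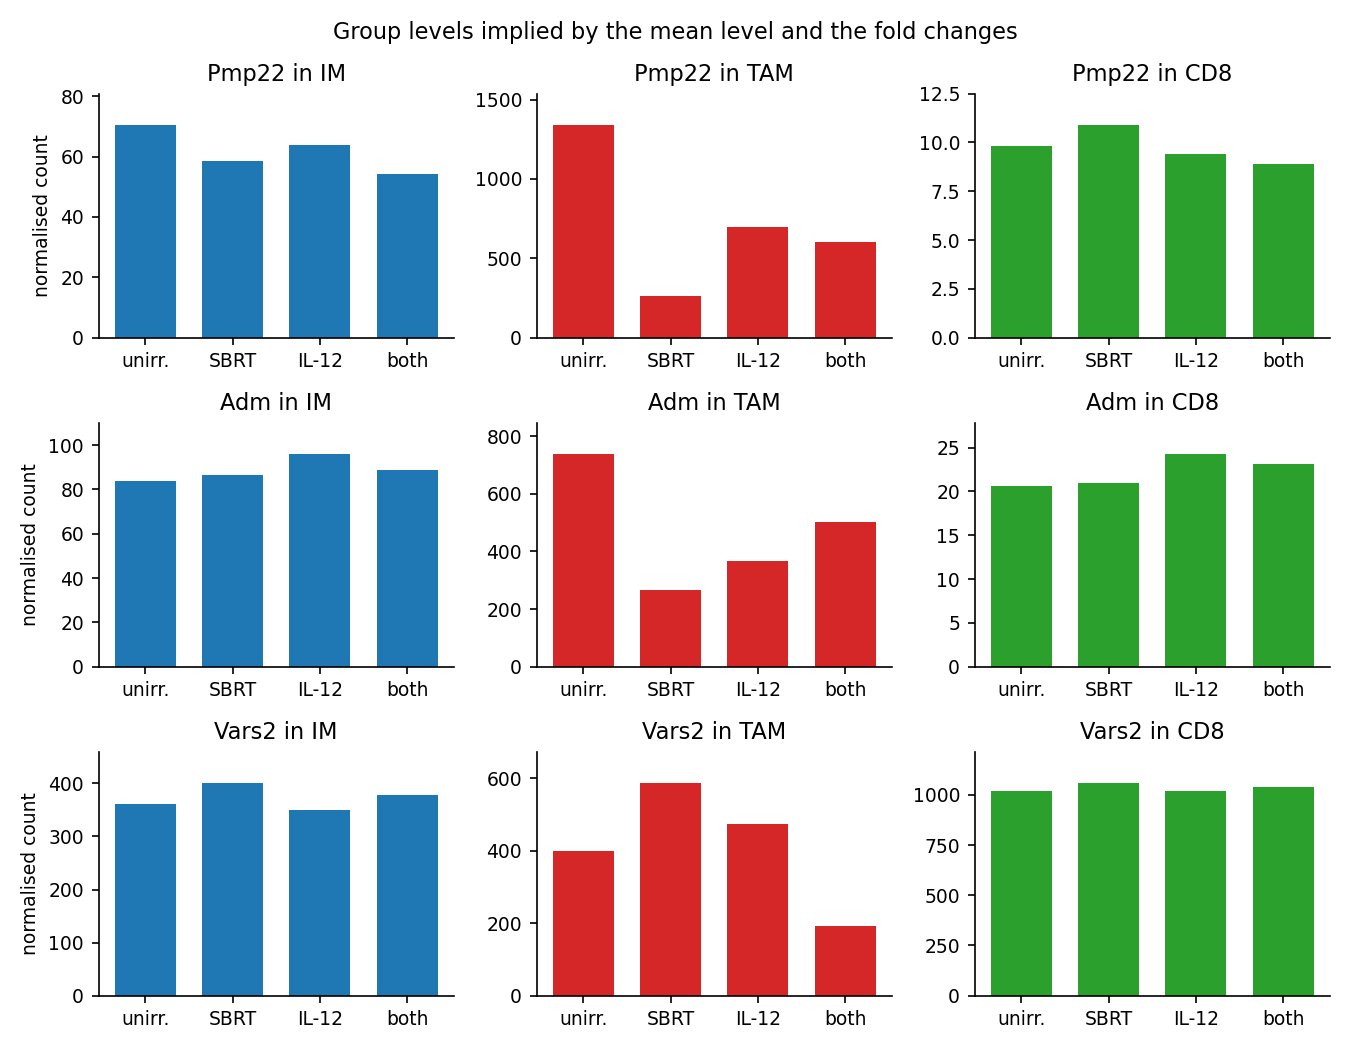
Mean normalised count of each gene (rows) in the 4 groups of each population (columns), worked back from the mean level and the deposited fold changes; bars start at 0, each panel has its own scale, and no error is drawn because the tables hold no library values. In TAM, Pmp22 and Adm are highest in the unirradiated group and lowest after SBRT, and Vars2 is lowest after the combination. In IM and CD8 the 4 bars of a gene differ less in proportion, with Pmp22 in IM running from 54.3 to 70.3. The fold changes are shrunken, most of all at low levels, which brings the bars of scarce genes closer together.

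Ranked by the size of the departure statistic over 32375 genes of TAM, Pmp22 was first, Vars2 was at 2 and Adm at 3. This order is the one the choice rests on and is given as a description. Next in it came RP23-172K2.12, a clone-named transcript with a departure of -2.02 ± 0.43, and then Ackr3, at 1.71 ± 0.48, Masp1 at -1.58 ± 0.42 and Acpp at 1.48 ± 0.43. Over the 13856 genes with a mean TAM level of at least 50, the median departure was 0.00, and the 5th and 95th percentiles were -0.45 and 0.49. The 3 tables share the unirradiated libraries, so a low or high value in those 2 libraries enters every effect and the departure.

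In IM, none of the 3 genes passed a test. Pmp22 had a mean level of 61.8 and implied group levels from 54.3 after the combination to 70.3 in unirradiated tumours. Its log2 fold change was -0.26 ± 0.21 after SBRT, -0.14 ± 0.23 after IL-12 and -0.37 ± 0.19 after the combination, at deposited adjusted p of 0.956, 0.926 and 0.308. The combination was close to the sum of the single effects, -0.40, with a departure of 0.03 ± 0.37 and a 95% interval from -0.70 to 0.76.

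Adm in IM had a mean level of 88.8 and implied group levels from 83.9 to 95.9. Its log2 fold change was 0.05 ± 0.19, 0.19 ± 0.21 and 0.08 ± 0.19 after SBRT, IL-12 and the combination. The departure was -0.15 ± 0.34, with an interval from -0.82 to 0.52. Vars2 was more highly expressed in IM, at a mean level of 372 and implied group levels from 351 to 400.0. Its 3 effects were 0.14 ± 0.23, -0.05 ± 0.22 and 0.06 ± 0.22, and its departure of -0.04 ± 0.39 had an interval from -0.80 to 0.72.

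By the authors' deposited adjusted p, 0 of 3 members passed in IM after SBRT (0.519% of all genes did), 0 of 3 after IL-12 (3.24%) and 0 of 3 after the combination (6.72%). By the unadjusted p, 0 of 3 were below 0.05 in each table; the lowest, for Pmp22 after the combination, was 0.0532.

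In CD8 T cells, Vars2 was abundant and nearly level across the groups. Its mean level was 1034, and its implied group levels ran from 1020 to 1057. Its log2 fold change was 0.05 ± 0.17, -0.00 ± 0.17 and 0.02 ± 0.17 after SBRT, IL-12 and the combination, with deposited adjusted p of 0.948, 0.998 and 0.963. The departure was -0.02 ± 0.29, with an interval from -0.59 to 0.55.

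Adm and Pmp22 were scarce in CD8, at mean levels of 22.3 and 9.75. The deposited fold changes were shrunken towards 0, most of all at such low levels, so their size and their errors say little there. Adm effects were 0.02 ± 0.17, 0.23 ± 0.20 and 0.17 ± 0.19, and its departure was -0.08 ± 0.32. Pmp22 effects were 0.15 ± 0.19, -0.06 ± 0.13 and -0.14 ± 0.08, and its departure was -0.23 ± 0.25. Pmp22 had no deposited adjusted p in any CD8 table, and Adm had none after IL-12 or the combination, since genes of low mean level were left out there. Of the members with an adjusted p in the authors' deposited tables, 0 of 2 passed after SBRT (0.471% of all genes did), 0 of 1 after IL-12 (2.52%) and 0 of 1 after the combination (7.47%). By the unadjusted p, 0 of all 3 were below 0.05 in each table, the lowest being 0.0926, for Pmp22 after the combination.

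**Figure D3:**
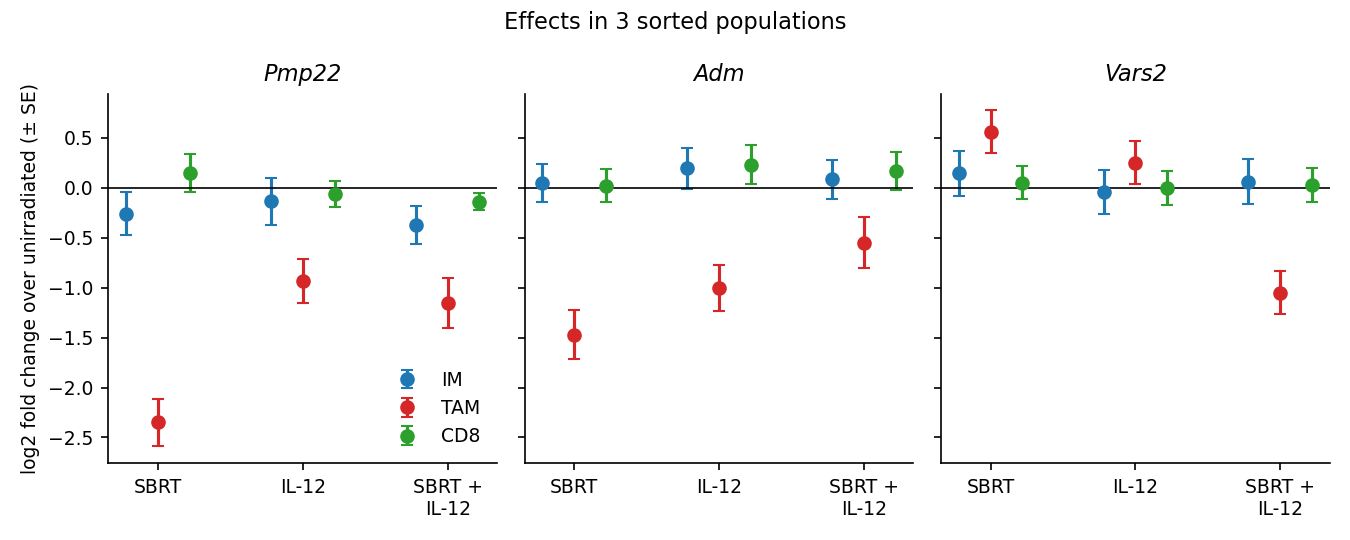
Log2 fold change over unirradiated (y axis, points with 1 SE) of the 3 genes after each treatment in IM, TAM and CD8. The IM and CD8 points lie between -0.37 and 0.23, and the TAM points reach -2.35 for Pmp22, -1.47 for Adm and -1.05 for Vars2.

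The departure was tested in IM and CD8 for each of the 3 genes with a normal test on the Wald statistics, adjusted by Benjamini-Hochberg over all genes with a p. All 6 adjusted p were 1.0, and the lowest unadjusted p was 0.259, for Pmp22 in CD8. Over all genes, 0.00305% had a departure at an adjusted p below 0.05 in IM and 0.00302% in CD8. The combination was also set against each single treatment, which gave 12 tests over the 3 genes and 2 populations, none of which passed. The lowest unadjusted p of these was 0.0845, for the combination minus SBRT of Pmp22 in CD8. In IM 0.204% of genes passed for the combination minus SBRT and 0% for the combination minus IL-12, and in CD8 the shares were 0.0755% and 0.00302%. Because the TAM values were chosen for their size, the difference between TAM and the other populations was not tested.

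By rank within its own population, Pmp22 stood above 77.0% of detected genes in TAM, 60.4% in IM and 43.8% in CD8. Adm stood above 72.7% in TAM, 62.8% in IM and 51.1% in CD8, the same order as Pmp22. Vars2 stood at 72.1% in TAM and 72.2% in IM, next to each other, and at 78.4% in CD8. The populations were normalised separately and no spread over libraries is given, so these ranks are a description and the normalised counts are not set against each other across populations.

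The ligand and receptor genes around Adm were followed in TAM from lists of related genes. Calcrl, the signalling receptor of adrenomedullin, had effects of -0.46 after SBRT, -0.05 after IL-12 and -0.36 after the combination, and a departure of 0.15; none of the 3 effects passed the test. Ackr3, the scavenging receptor, fell by 1.30 ± 0.22 after SBRT (deposited adjusted p = 1.95e-06), and its values after IL-12 and the combination, -0.63 and -0.21, did not pass. Its departure was the highest in the 10 lists of related genes, and its 3 values stood in the same order as those of Adm, at a mean level of 140. Of the 8 receptor and processing genes tested in TAM, Ackr3 was the 1 that passed in any table. In IM a different gene of that list fell after the combination: Ramp1, a partner of Calcrl in the receptor for the related peptide CGRP, was at -0.85 ± 0.18 (deposited adjusted p = 0.000122). Ramp1 in TAM was at -0.38, -0.10 and -0.18, and none of these passed.

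None of the hypoxia-inducible genes passed the test in TAM. Of 28 measured, 0 rose and 0 fell in each of the 3 deposited tables by the adjusted p of DESeq2 (1, 3 and 3 had an unadjusted p below 0.05). Over all genes, 2.08% passed after SBRT, 0.935% after IL-12 and 4.21% after the combination, so 0 of 28 is near those shares. The medians of the list were -0.09, 0.01 and 0.04, against medians of 0.00, -0.01 and 0.00 over all genes tested. Vegfa, a hypoxia-induced growth factor for vessels, had effects of -0.27, -0.21 and -0.07, and Slc2a1, a glucose transporter, had -0.08, 0.15 and 0.24. Hif1a, the oxygen-regulated subunit of HIF, had 0.24, 0.20 and 0.34, none of which passed. The departures of the 27 hypoxia genes with a level of at least 50 ran from -0.16 for Higd1a to 0.59 for Egln3, with a median of 0.17. Of these, 19 were above 0, where 50.0% of all genes at that level were. None was near the 1.93 of Adm, which was chosen for the size of its departure. In IM, where Adm did not pass the test, Pfkfb3, a regulator of glycolysis, and Aldoa, a glycolytic enzyme, rose after the combination by 0.70 and 0.51, and Ndrg1, a stress-induced gene, by 0.77 (deposited adjusted p = 5.54e-05, 0.00259 and 0.000169). Pfkfb4, a relative of Pfkfb3, fell by 0.40 there (deposited adjusted p = 0.0266), so that 3 genes of the list rose and 1 fell. The calls for Aldoa and Pfkfb4 were lost against an empirical null (adjusted p = 0.0672 and 0.234).

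Among the relatives of Pmp22 in TAM, Emp1, an epithelial membrane protein of the same family, fell after every treatment. Its log2 fold change was -0.99 ± 0.20 after SBRT, -1.27 ± 0.19 after IL-12 and -1.33 ± 0.20 after the combination, at deposited adjusted p of 0.00031, 1.86e-07 and 4.74e-08. Emp1 and Pmp22 differed in how the combination stood to SBRT: for Emp1 it was the lowest value of the 3, and its departure of 0.93 did not pass the test. Emp3, of the same family, had effects of -0.13, -0.15 and -0.20, and Emp2 had a mean level of 12.5. Of the growth arrest-specific genes, 1 of 7 passed in TAM: Gas6, a ligand of the phagocyte kinases Axl and Mertk, fell by 1.14 ± 0.24 after IL-12 (deposited adjusted p = 0.000883), and its value was 0.32 after SBRT and -0.17 after the combination. Emp1 also fell in IM, to -0.81 after IL-12 (deposited adjusted p = 0.00189), where Pmp22 stood at -0.14.

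The other mitochondrial aminoacyl-tRNA synthetases had smaller departures than Vars2, which was chosen for the size of its own. In the 16 others these ran from -0.71 for Wars2 to 0.70 for Pars2, with a median of -0.09, and 7 of 16 were above 0. Wars2, the tryptophan enzyme, and Sars2, the serine enzyme, had the same signs as Vars2 in the single effects. For Wars2 the effects were 0.17, 0.27 and -0.27, and for Sars2 they were 0.54, 0.39 and 0.24, with no call in the authors' deposited tables. Pars2, the proline enzyme, fell by 0.96 after IL-12 and fell by 0.86 after the combination (deposited adjusted p = 0.0391 and 0.0488), and both calls were lost when the p-values were adjusted over every gene with a p (0.0664 and 0.0903).

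Of the 20 cytosolic synthetases, whose departures lay between -0.42 and 0.24, Vars, the valine enzyme of the cytosol, fell by 0.66 ± 0.16 after the combination in TAM (deposited adjusted p = 0.00209). Its values after SBRT and IL-12 were -0.28 and 0.04. In CD8, where Vars2 was at 0.02, Vars rose by 0.38 ± 0.11 after the combination (deposited adjusted p = 0.0146), a call lost against an empirical null (0.331). Wars, the cytosolic tryptophan enzyme, which interferon gamma induces, rose in TAM by 0.61 after IL-12 and 0.60 after the combination (deposited adjusted p = 0.0456 and 0.0345), calls that were also lost on adjustment over every gene (0.0776 and 0.0640). The 13 mitochondrial translation factors had departures from -0.60 for Mtfmt to 0.20 for Gatc. The 13 genes that mitochondrial DNA encodes had departures from 0.19 to 0.55, all above 0, opposite in sign to Vars2. In IM, 12 of these 13 were above 0 too, with a median of 0.25, and the departure of Vars2 there was -0.04. None of these passed the test of the departure.

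Taking the 10 lists without the 3 members, 2 of 117 genes tested passed in TAM after SBRT (1.71%), 4 of 117 after IL-12 (3.42%) and 4 of 115 after the combination (3.48%). These shares stand beside 2.08%, 0.935% and 4.21% of all genes. Over all genes, 0.0124% had a departure at an adjusted p below 0.05 in TAM, and no gene of the lists did in any population. Ackr3 in TAM stood at an adjusted p of 0.0975 in the test of the departure. It passed when only genes with a level of at least 50 were tested (0.0417) and with the variance of the shared controls removed (0.000457). It also passed against an empirical null (4.04e-11), but with each table's own error it did not (0.984).

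**Figure D4:**
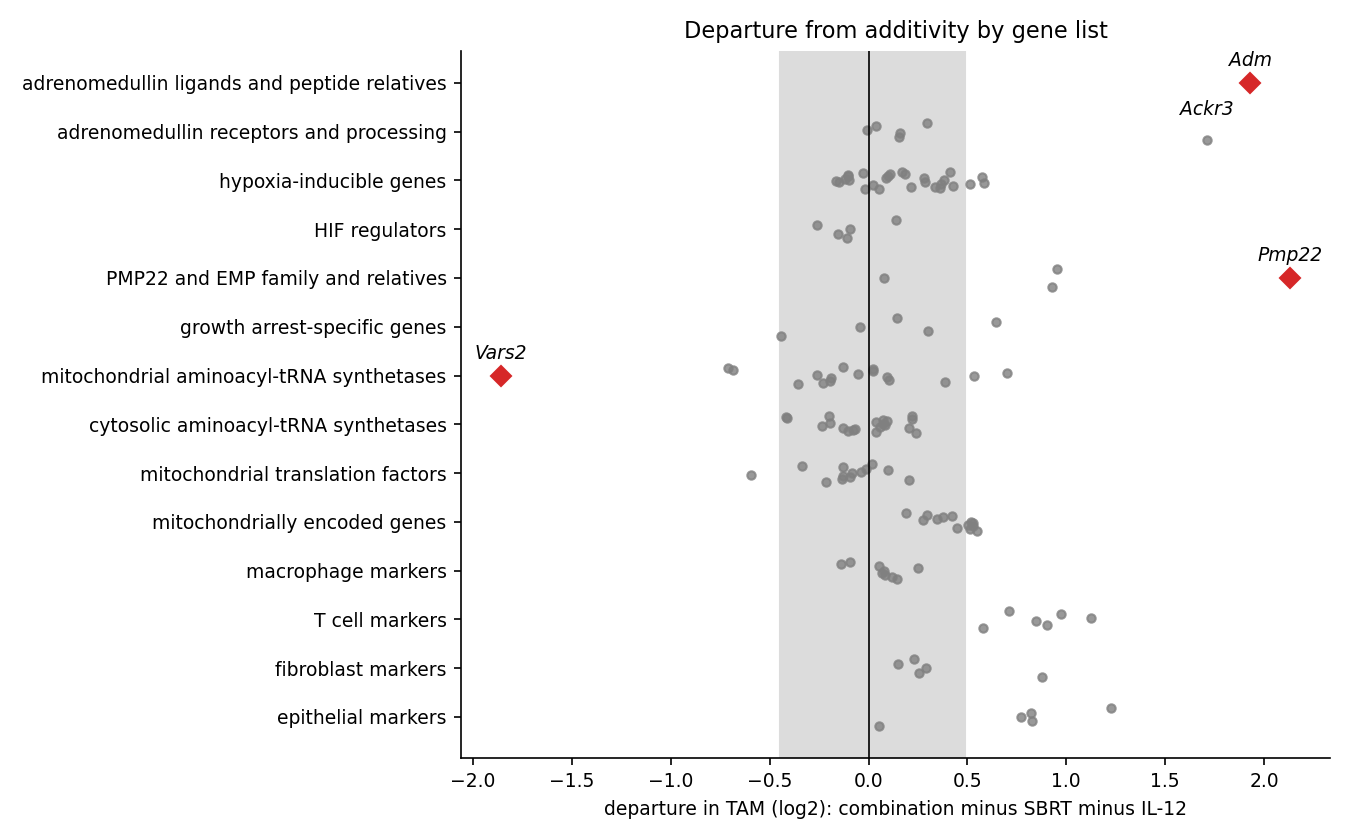
Departure in TAM (x axis, log2: combination minus SBRT minus IL-12) of genes with a mean level of at least 50, by gene list or marker list (rows); grey points are genes, red diamonds are Pmp22, Adm and Vars2, and the grey band runs from the 5th to the 95th percentile of all such genes. The diamonds lie at 2.13, 1.93 and -1.86, and Ackr3, at 1.71, is the grey point nearest to Adm.

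Genes next to the members had smaller departures, which the choice of the members for the size of theirs made likely. Gtf2h4, a subunit of the general transcription factor TFIIH, starts upstream of Vars2 on the same strand with 137 bases between the genes, and its TAM effects were -0.09, -0.42 and -0.17, with a departure of 0.34. Sbf2, 12738 bases from Adm, had a departure of -0.08. Tekt3, beside Pmp22, had a mean TAM level of 0.0970. Adm is overlapped by the antisense transcript Gm28863 and Vars2 by the antisense transcript Gm20483. The library kit does not mark strand, so reads from these overlaps cannot be told apart.

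The genes whose 9 effects were most like those of each member were named by the root mean square (RMS) difference, over 10795 genes with a TAM level of at least 50. Nearest to Pmp22 were Ptgis, prostacyclin synthase (RMS difference 0.335), the chemokine Cxcl13 (0.342), and the matrix genes Fbln2 (0.36) and Col1a1 (0.362). Ptgis had TAM effects of -1.53, -0.81 and -0.77, and Cxcl13 had -1.59, -1.14 and -1.22. Both had departures close to 1.5 log2, at 1.57 and 1.51, and Fbln2 and Col1a1 had smaller ones of 0.91 and 0.88. None reached the SBRT effect of Pmp22.

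Nearest to Adm were Rtn1, a reticulon (0.208), the scavenger receptor Marco (0.240), the protease inhibitor Slpi (0.245) and Ptgis (0.246). Marco, a marker of some macrophage subsets, had TAM effects of -1.24, -0.75 and -0.84, and Slpi had -0.94, -0.73 and -0.44. Rtn1 was at -1.39, -0.75 and -0.74. These genes were picked for their likeness to Adm, and in them, too, the combination was closer to the unirradiated level than SBRT was. Nearest to Vars2 were Bcr (0.242), Trim24 (0.243), Serinc5 (0.245) and Pomt1 (0.247). They were lower after the combination, from -0.96 for Serinc5 to -0.44 for Pomt1, and their departures ran from -0.95 to -0.66. The likeness is measured over 9 effects that share 3 sets of unirradiated libraries, and it gives no p.

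**Figure D5:**
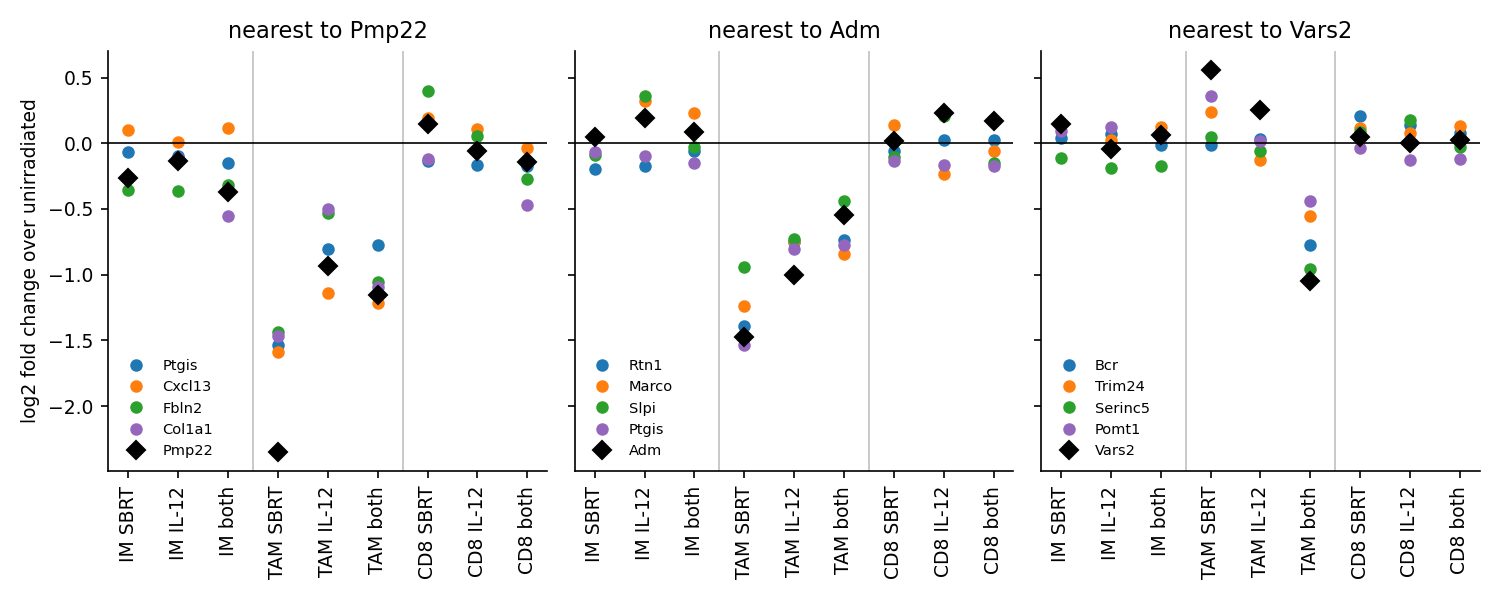
Log2 fold change over unirradiated (y axis) in the 9 comparisons (x axis) for each member (black diamonds) and the 4 genes nearest to it by RMS difference (coloured points). In TAM the neighbours of Pmp22 and Adm lie below 0 in all 3 comparisons and those of Vars2 after the combination; no neighbour of Pmp22 reaches its SBRT value of -2.35 and no neighbour of Vars2 its SBRT value of 0.56.

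Markers of the sorted cells and of other cells were read beside these results. In TAM, 2.08% of all genes passed after SBRT, 0.935% after IL-12 and 4.21% after the combination. Counts of 0 in lists this short are near those shares. All 9 macrophage markers were detected in TAM, 0 passed the test in each TAM table (1, 1 and 2 by the unadjusted p of DESeq2), and their summed implied level ran from 1278660 to 1427560 over the groups. The 6 T cell markers had departures from 0.58 to 1.13, all above 0 like those of Pmp22 and Adm, with 0 calls in each table (0, 2 and 0 by the unadjusted p) and a summed level from 1050 after IL-12 to 1509 after the combination. The 5 epithelial markers at a level of 50 or more had departures from 0.05 to 1.23, with 0 calls in each table (4, 1 and 0 by the unadjusted p) and a sum from 1659 after SBRT to 2702 after the combination. Fibroblast markers summed to 2807 in unirradiated tumours, 1664 after SBRT, 2237 after IL-12 and 1806 after the combination. These sums stood in the same order of groups as the implied levels of Pmp22. The 5 fibroblast markers at a level of 50 or more had departures from 0.15 to 0.88, all above 0. Of the 7 fibroblast markers, Col1a1 fell after SBRT (-1.47) and after the combination (-1.09), and Dcn fell after the combination (-0.90), at deposited adjusted p of 8.55e-07, 0.000983 and 0.00812; the call for Dcn was lost against an empirical null (0.0615).

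Sox10, a Schwann cell marker, was at 0 in TAM, and 6 of the 9 Schwann cell markers were below a level of 10. The others, Egr2, Erbb3 and Prx, had mean TAM levels of 21541, 185 and 36.2. Among the monocyte markers, Plac8 rose and F13a1 fell in all 3 tables, to values after the combination of 1.34 and -0.98. The part of these other cells in the effects on Pmp22, Adm and Vars2 was not tested.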

How the data were processed

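RNA was sequenced from 33 libraries of sorted IM, TAM and CD8 cells (TruSeq V2 kit, per the labels' protocols). The submitters' processing notes name STAR 2.6.0c, Salmon, featureCounts, Subread, FastQC 0.11.8, Trimmomatic 0.36 and GRCm38; roles, order and the annotation release are not given in the sources used here. The 9 deposited tables are DESeq2 results per the file headers, with version and formula not given: a mean normalised signal (counts divided by size factors, per the file headers), a log2 fold change, a Wald statistic (a score deposited by the authors), a p-value and an adjusted p-value deposited by the authors. The tables of a population hold the same means, as in 1 fit. Depth per library is unknown, so no interval that needs it is given.

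The deposited log2 fold changes are shrunken: divided by the Wald statistic, they get smaller at low levels. This quotient was taken as the standard error, and 95% intervals as 1.96 of these. It is an approximation: for IL-12 in TAM, fold and statistic differed in sign for 2794 of 32375 genes. Because it gets smaller with the fold, errors and intervals may be too narrow, most of all at low levels. Group levels were computed from mean level, group size and the shrunken folds. A gene passed at an adjusted p below 0.05 and only then is written as having risen or fallen. The departure (combination minus both single effects) and the differences between treatments were tested on the Wald statistics with a shared standard error and a 2-sided normal test, adjusted over all genes with a p. The covariance from shared controls was ignored, so the test is conservative. On that account the errors and intervals of the departure and of the differences between treatments may be too wide. The scripts were tested on simulated data. Alternatives were the removal of the control variance, each table's own error, an empirical null, a level of at least 50, adjustment over every gene, linear folds, centring and inverted shrinkage.

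The 3 genes and the 10 gene and 10 marker lists were chosen with earlier results of these data known. Genes named beside the members were, per list and comparison, up to 4 with the smallest adjusted p, the 4 nearest by effect and the neighbours in GENCODE; predicted genes, pseudogenes and clone-named transcripts were left out of the nearest. Other list genes were named for their role or for the ends of a range after their values were seen. 1 list name was matched through a RefSeq synonym. Python 3.11.15 with numpy 2.4.6, pandas 2.3.3 and scipy 1.17.1 was used.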

Additional observations from a re-analysis of the deposited data

How the results depend on the processing

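The TAM departures kept their sign under every alternative run, which the choice of the genes for the size of this departure made likely. As differences of linear folds they were 0.731 for Pmp22, 0.825 for Adm and -1.18 for Vars2; with the shrinkage inverted they were 2.6, 2.42 and -2.22. That inversion took the prior width of the SBRT table for the IL-12 table, whose own edge was unclear. In IM and CD8, 71 of 72 alternative settings kept direction and side of the threshold, at adjusted p from 0.255 to 1.0; with each table's own error the departure of Pmp22 in IM changed sign around 0, at an adjusted p of 1.0.

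Counts of genes over all genes depended on the setting, and the cause was not tested. The number with a departure went from 1 in IM, 4 in TAM and 1 in CD8 to 4, 11 and 14 with the control variance removed and to 439, 552 and 437 with an empirical null; with own errors it was 5 in TAM and 2 in CD8, and at a level of at least 50 it was 5 in TAM and 0 in CD8. List genes with a departure went from 0 to 1 in TAM and 1 in CD8 with the control variance removed, 1 in TAM at a level of at least 50, and 2, 6 and 3 in IM, TAM and CD8 with an empirical null. Among the related-gene lists, adjustment over every gene left 3 genes for IL-12 in IM (main value 7), 2 for IL-12 and 2 for the combination in TAM (4 and 4) and 0 for SBRT in CD8 (1). The empirical null left 3 for IL-12 and 5 for the combination in IM (7 and 11), 2 for the combination in TAM, and 0 for each treatment in CD8 (1, 3 and 16).

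No paired analysis was possible because the tables hold no values of single libraries; for the same reason no library was left out in turn. Unknown depth and 2 libraries in 3 of the 4 TAM groups limit the precision of the TAM values.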
